A study of Rattus norvegicus with 12 samples.

Results

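Janus kinases (*Jak1*, *Jak2*, *Jak3* and *Tyk2*), 4 STAT transcription factors (*Stat3*, *Stat5a*, *Stat5b* and *Stat6*) and 2 SOCS inhibitors (*Socs1* and *Socs3*) were followed in the wound tissue of diabetic rats. These 10 genes were taken by their symbols from 25620 genes with read counts, and all 10 were also among the 25524 genes with FPKM (fragments scaled by gene length and library total). The rats were young adult male SD rats made diabetic with streptozotocin (STZ), each with a circular full-thickness wound on the back, and all 4 groups carried this diabetes and this wound. The wounds were given saline (control), the dried snail mucus gel of *Achatina fulica* (d-SMG), its sulfated glycosaminoglycan (s-GAG) or an alginate dressing (Alg), and tissue was taken on day 3, 7 or 14. Of each group and day 1 library was available, 12 altogether, and a comparison within 1 day therefore had no replicate check. The labels do not say whether a library came from 1 animal, and the STZ model lacks some features of human diabetic ulcers. The labelled tissue is skin, and muscle markers were abundant in it, as given below.

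The JAK-STAT pathway carries signals of cytokines, growth factors and hormones from the cell surface to the nucleus. A ligand joins its receptor chains, the JAKs bound to those chains phosphorylate each other and the receptor, and the STATs docked there are phosphorylated, pair up and bind DNA. SOCS proteins are induced by these same signals and shut them down as feedback inhibitors. In healing skin, IL-6 and related cytokines act through STAT3 on keratinocytes and macrophages, while IL-4 and IL-13 act through STAT6 on macrophages. Abundance of mRNA is not a measure of STAT phosphorylation.

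The libraries held 13748887 to 38302461 reads on genes. Levels between libraries are given as CPM (read counts scaled to a common library total by the TMM method), and 2 libraries stood apart. In the s-GAG library of day 14, 47.9% of 16110 genes lay at least 2-fold from the mean of the other libraries of that day, against 11.3% to 24.5% in the other 11 libraries. The s-GAG library of day 14 was itself left out of the means used for the other libraries of its day. The d-SMG library of day 3 held 32.4 CPM over the 5 keratinocyte markers in the tables (of 6 listed), against 3551 to 29640 CPM elsewhere, and it held the most skeletal muscle signal, 171200 CPM over 6 markers, against 4172 to 118200 CPM elsewhere. Main results that rest on these libraries are also given without them. In such bulk tissue, fewer cells of a type and less RNA per cell cannot be told apart.

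Promoter sequences were found in RefSeq (rat, GRCr8) for 7 of the 10 genes. Those of *Socs1* and *Socs3* are shown because both genes are known to be induced by STATs and had the widest ranges between libraries. Each line gives the 250 bases before the annotated start of the gene, 5′ to 3′ on its own strand. Matches to 2 motifs are in capitals. The motifs searched were TTCNNNGAA, the core that most STAT pairs bind, which reads the same on both strands, and GAAANNGAA, the core of an interferon-stimulated element, taken on either strand.

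*Socs1*, chr10:5389324-5389573, plus strand: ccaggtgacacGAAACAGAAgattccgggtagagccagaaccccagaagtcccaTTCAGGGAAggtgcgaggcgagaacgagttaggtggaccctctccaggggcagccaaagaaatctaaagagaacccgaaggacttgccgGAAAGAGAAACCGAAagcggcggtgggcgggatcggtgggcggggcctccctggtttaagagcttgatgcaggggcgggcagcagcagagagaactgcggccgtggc

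*Socs3*, chr10:103694769-103695018, minus strand: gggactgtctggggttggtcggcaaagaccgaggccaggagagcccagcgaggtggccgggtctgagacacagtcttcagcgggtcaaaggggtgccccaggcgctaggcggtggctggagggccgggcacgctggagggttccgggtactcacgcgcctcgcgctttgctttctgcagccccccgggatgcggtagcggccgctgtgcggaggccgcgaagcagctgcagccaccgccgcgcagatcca

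The *Socs1* window held TTCAGGGAA at position −196 from the start, and GAAACAGAA, GAAAGAGAA and GAAACCGAA at −239, −107 and −101, of which the last 2 overlap. In the *Socs3* window, the letters of neither motif occurred. Sequence farther upstream was not searched, so this says nothing of motifs outside the window. The annotated starts were not checked against the reads. The *Socs3* window may therefore not be the promoter used in this tissue, and the 2 windows are not a comparison of the 2 promoters. Over all 33469 promoters of 300 bases (250 before the start and 50 after it), 8.87% held TTCNNNGAA and 9.71% held GAAANNGAA, and 0.0508% held the latter 3 times or more. None of the other 5 promoters (*Jak2*, *Stat3*, *Stat5a*, *Stat5b* and *Stat6*) held either motif. These matches describe letters in a window, not bound sites.

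Per length, the 10 genes spanned a wide range of levels. *Jak2*, the kinase of hormone and colony-stimulating factor receptors, had the highest median FPKM over the 12 libraries (35.0), followed by *Jak1* (33.9), the kinase shared by interferon, gp130 and γ chain receptors. *Stat3* and *Stat6* had median FPKM of 30.3 and 27.6, and *Socs3* of 13.3. *Stat5b* (9.34), *Stat5a* (6.73), *Tyk2* (3.35), *Jak3* (1.17) and *Socs1* (0.41) followed in this order of median FPKM. *Jak1* and *Jak2* together made up 87.0% to 95.5% of the summed FPKM of the 4 kinases in every library.

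Neighbours in this order were compared within libraries by an exact permutation test (sign flips, two-sided) of log2(FPKM + 0.1), with Benjamini-Hochberg adjustment over the 9 pairs. *Jak1* was above *Stat3* in 10 of 12 libraries (mean log2 difference 0.31 ± 0.37 SD, n = 12, adjusted p = 0.0158). *Stat5b* was above *Stat5a* in 11 of 12 (0.64 ± 0.55 SD, adjusted p = 0.0121). *Stat5a* was above *Tyk2* and *Tyk2* above *Jak3* in 12 of 12 libraries (adjusted p = 0.0022 for both, from the smallest p the permutations can give), and *Jak3* was above *Socs1* in 11 of 12 (adjusted p = 0.00879). The differences did not pass between *Jak2* and *Jak1* (adjusted p = 0.317), *Stat3* and *Stat6* (0.432), *Stat6* and *Socs3* (0.392), or *Socs3* and *Stat5b* (0.0586). The libraries differed in dressing and day, and that spread is part of these tests. The pairs were set by the medians of these same libraries, so the p-values are not an independent check of the order.

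**Figure D1:**
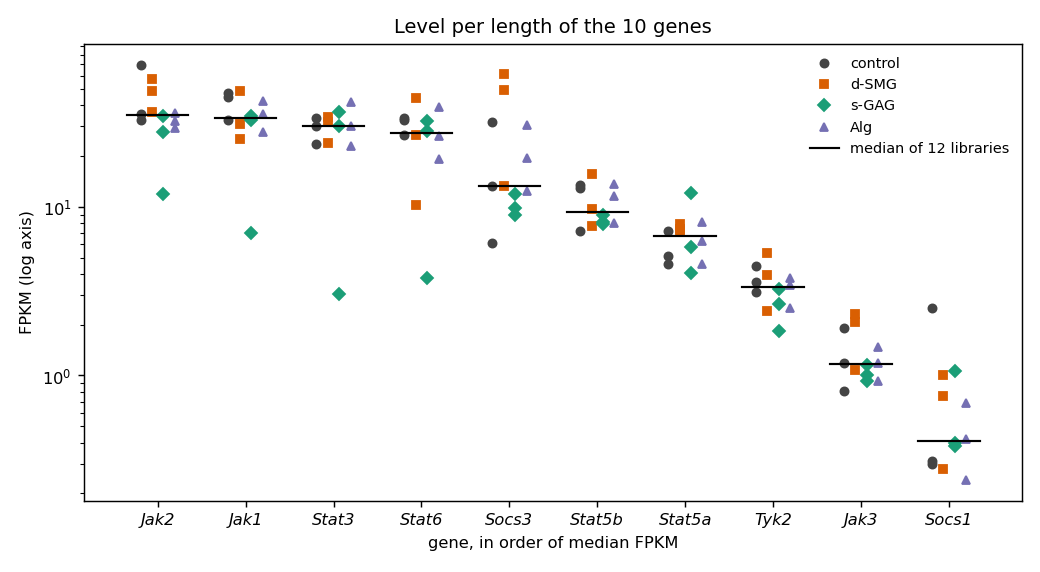
FPKM of the 10 genes on a log axis, in order of the median over 12 libraries (bar), with 1 point for each library by treatment. *Jak2*, *Jak1*, *Stat3* and *Stat6* sit at medians of 27.6 to 35.0 with a single low s-GAG point each (day 14), and *Socs1* sits lowest at 0.41 with 1 high control point (day 3) of 2.52.

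Among the kinases, *Tyk2* varied least between libraries, and *Jak1* varied little in all libraries but 1. Outside the s-GAG library of day 14, *Jak1* ranged from 168 to 296 CPM, a ratio of 1.76, and the s-GAG library of day 14 lay below that range at 56.9 CPM. *Tyk2*, the partner of JAK1 at interferon and IL-10 family receptors, ranged from 15.5 CPM (s-GAG, day 14) to 28.3 CPM (control, day 3), a ratio of 1.82. The SD of log2 CPM of *Tyk2* over 12 libraries was 0.26, lower than that of all but 8.57% of genes, where the median gene had 0.58.

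*Jak2* stood out in the control library of day 7. The control, d-SMG, s-GAG and Alg libraries, always given in this order, held 150, 207, 134 and 129 CPM of *Jak2* on day 3. On day 7 they held 302, 167, 118 and 135 CPM, and on day 14 they held 139, 218, 66.8 and 140 CPM. The 3 dressings were thus below control on day 7, whereas on days 3 and 14 the d-SMG library was above it and the s-GAG library below it. The fitted level over the days did not separate any dressing from control, as given below.

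*Jak3*, which binds the common γ chain (*Il2rg*) of lymphocyte cytokine receptors, was low throughout, with 67 to 180 reads in a library. The control, d-SMG, s-GAG and Alg libraries of day 3 held 5.75, 7.08, 5.22 and 6.81 CPM of *Jak3*. On day 7 they held 9.49, 8.29, 4.56 and 6.24 CPM, and on day 14 they held 3.96, 10.1, 6.48 and 4.16 CPM. The d-SMG library of day 14 was the highest of the 12 and the control library of the same day the lowest. *Jak3* in d-SMG on day 14 was 2.56-fold the control (161 against 81 reads, log2 ratio 1.36, 95% interval 0.96 to 1.76, exact Clopper-Pearson for the counting error only).

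The 3 kinase genes *Jak1*, *Jak2* and *Tyk2* were lower in s-GAG than in control on each of the 3 days. The log2 ratios of *Jak1* ran from −2.26 to −0.10, those of *Jak2* from −1.36 to −0.16 and those of *Tyk2* from −0.57 to −0.36. The same sign on 3 days was seen for 27.4% of all genes in s-GAG, for 19.3% in d-SMG and for 24.7% in Alg, and for 3, 1 and 0 of the 10 genes here.

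**Figure D2:**
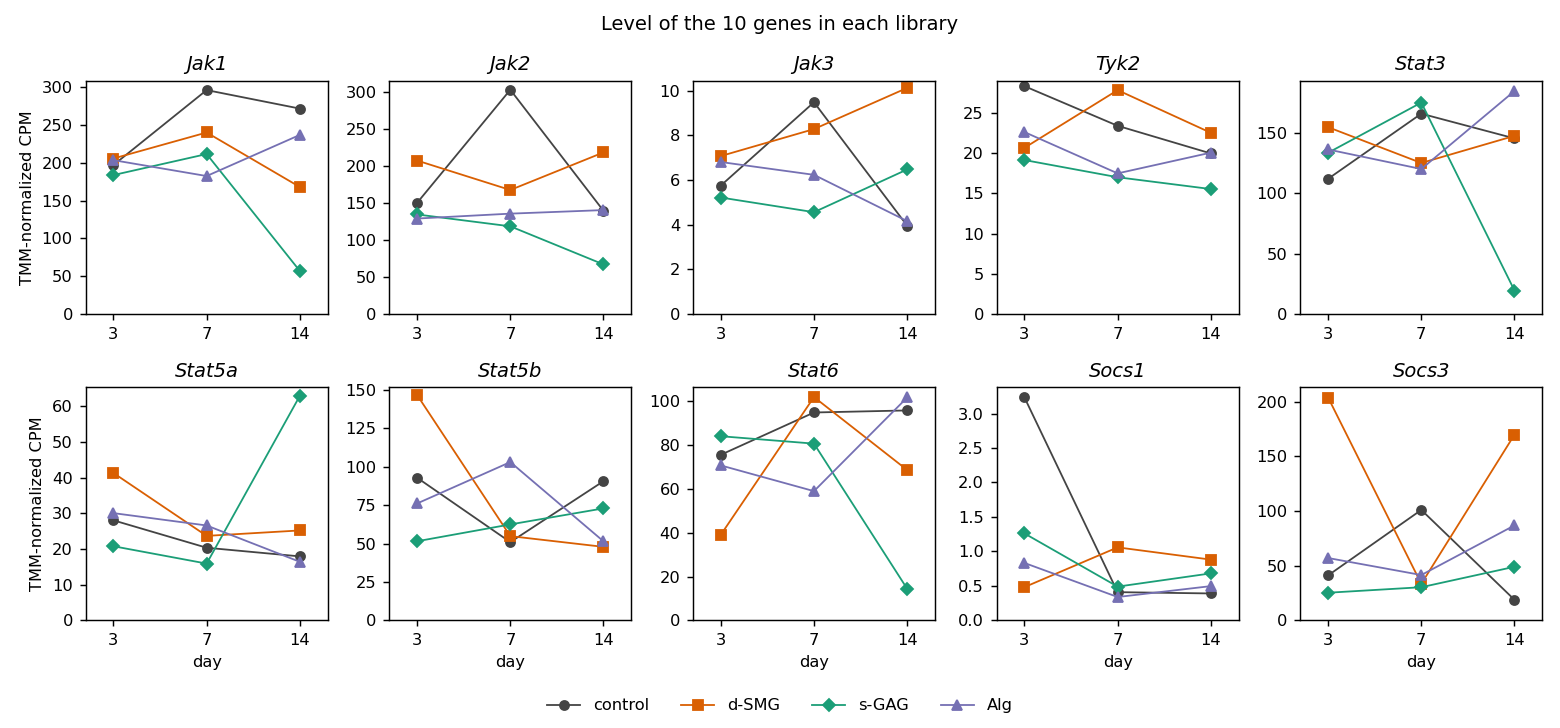
TMM-normalized CPM of each gene (linear axis from 0, own scale for each panel) by day, with 1 point for each library and lines joining the days of a treatment (different tissue samples). *Socs3* was highest in d-SMG on day 3 (204 CPM) and day 14 (170 CPM), *Socs1* in control on day 3 (3.23 CPM), *Jak1*, *Jak2*, *Stat3* and *Stat6* were lowest in s-GAG on day 14, and *Stat5a* was highest there (62.9 CPM).

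*Stat3*, the factor of the gp130 cytokines, was steady outside 1 library. Its levels from control to Alg on day 3 were 112, 155, 134 and 136 CPM. The day 7 levels were 166, 125, 175 and 120 CPM, and those of day 14 were 146, 148, 19.4 and 185 CPM. Without the s-GAG library of day 14 the SD of log2 CPM of *Stat3* was 0.23, lower than that of all but 11.6% of genes. With it the SD was 0.86, higher than that of 75.7% of genes. On day 3 each dressing was above control, by log2 ratios of 0.25 to 0.47.

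*Stat6*, which acts for IL-4 and IL-13, was low in both libraries that stood apart. The levels of *Stat6* on day 3, again from control to Alg, were 75.6, 39.1, 84.1 and 70.8 CPM. They were 94.95, 102, 80.7 and 59.0 CPM on day 7, and on day 14 they were 95.9, 68.7, 14.5 and 102 CPM. The lowest level among the other 10 libraries was the 59.0 CPM of Alg on day 7. The summed macrophage markers (6 genes) of the same library were 281 CPM, and those of the s-GAG library of day 14 were 237 CPM, the 2 lowest of the 12 in a range up to 2125 CPM. In the d-SMG library of day 3 they were 743 CPM. The part of cell makeup in the *Stat6* levels was not tested.

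*Stat5a* and *Stat5b* are neighbouring paralogs of nearly the same sequence that act for growth hormone, prolactin and colony-stimulating factors, and the split of reads between them is uncertain. On day 3 the control, d-SMG, s-GAG and Alg libraries held 28.0, 41.3, 20.8 and 30.0 CPM of *Stat5a* and 92.8, 147, 51.5 and 76.1 CPM of *Stat5b*. On day 7 they held 20.3, 23.7, 15.9 and 26.6 CPM of *Stat5a* and 50.9, 54.8, 62.4 and 103 CPM of *Stat5b*. On day 14 they held 17.9, 25.2, 62.9 and 16.4 CPM of *Stat5a* and 90.6, 47.8, 72.9 and 51.4 CPM of *Stat5b*. *Stat5a* in d-SMG was above control on each day, by log2 ratios of 0.22 to 0.56, the only gene of the 10 with 1 sign on 3 days in that comparison. The highest levels of *Stat5b*, in d-SMG on day 3 and Alg on day 7, were in the libraries with the most skeletal muscle signal (171200 and 118200 CPM). Over the 12 libraries the correlation of *Stat5b* with the muscle sum was 0.78, and it was 0.64 without the 2 libraries farthest from the median of *Stat5b*, and the part of muscle content was not tested. The FPKM of *Stat5a* was 0.35 to 0.94 of that of *Stat5b* in 11 libraries and 1.53 of it in the s-GAG library of day 14.

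*Socs3*, the inhibitor induced by IL-6 family cytokines that blocks JAKs at gp130, had the widest range of the 10 genes in CPM, 10.8-fold. *Socs3* was at 41.2 CPM in control, 204 CPM in d-SMG, 25.3 CPM in s-GAG and 57.0 CPM in Alg on day 3. It was at 101, 33.4, 30.3 and 41.5 CPM on day 7, and on day 14 it was at 18.8, 170, 49.0 and 86.9 CPM. The control was the highest library on day 7 and the lowest on day 14. In d-SMG, *Socs3* was 4.95-fold the control on day 3 (2533 against 980 reads, log2 ratio 2.31, interval 2.20 to 2.42) and 9.03-fold on day 14 (2697 against 385 reads, log2 ratio 3.18, interval 3.02 to 3.33). On day 7 it was 3.02-fold lower than in the control (726 against 1480 reads, log2 ratio −1.60, interval −1.73 to −1.47). The sign thus differed between the days, for d-SMG and also for Alg (log2 ratios of 0.47, −1.28 and 2.21 on days 3, 7 and 14) and s-GAG (−0.70, −1.74 and 1.38). All 3 dressings were below the 1 control library on day 7 and above the 1 control library on day 14.

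The 2 libraries highest in *Socs3* were d-SMG of day 3 and of day 14, which held the highest (171200 CPM) and nearly the lowest (5387 CPM) skeletal muscle signal. Their keratinocyte sums were 32.4 and 15010 CPM. The summed neutrophil markers (6 genes) were 10.6 and 40.8 CPM there, in a range of 10.6 to 158 CPM over the 12 libraries. The summed T and NK cell markers (6 genes) were 6.84 and 58.9 CPM, the lowest and the highest of the 12 libraries. The sums of the other marker lists in these 2 libraries, in the same order, were 743 and 614 CPM for macrophages (6 genes), 290 and 416 CPM for leukocytes (5 genes), 5895 and 17230 CPM for fibroblasts (6 genes, 5895 to 43770 CPM over all libraries), 598 and 309 CPM for endothelium (5 genes, 309 to 797 CPM) and 954 and 504 CPM for adipocytes (5 genes, 501 to 2314 CPM). The part of cell makeup in the *Socs3* levels was not tested.

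The transcript of *Il6*, the leading inducer of *Socs3*, was chosen for comparison after the values were seen. *Il6* had few reads, 1 to 78 in a library. The day 3 libraries, from control to Alg, held 0.71, 2.25, 0.52 and 1.27 CPM of *Il6*, on day 7 they held 1.16, 0.46, 0.39 and 0.068 CPM, and on day 14 they held 0.15, 3.08, 0.48 and 4.85 CPM. Within each day, the control library was above the 3 dressings in *Il6* on day 7 and below them on day 14, as for *Socs3*. Over the 12 libraries the Pearson correlation of log2 CPM between *Socs3* and *Il6* was 0.79 (Spearman 0.76), and it was 0.72 without the 2 libraries farthest from the median of *Socs3*, both d-SMG. Between *Socs3* and *Osm*, another ligand of the gp130 family, it was 0.54 (Spearman 0.48), and 0.35 without the same 2 libraries. Between *Socs3* and *Stat3* it was 0.14 over the 12 libraries. These correlations describe 12 libraries that share treatments, days and depth, and carry no p-value.

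*Socs1*, which inhibits JAK1, JAK2 and TYK2 at interferon receptors, was the rarest of the 10 genes, with 5 to 77 reads in a library. The control library of day 3 held 3.23 CPM (77 reads) of *Socs1*, and the other 11 libraries held 0.34 to 1.26 CPM (5 to 23 reads). The d-SMG library of day 3 held 6 reads, 6.70-fold lower in CPM than the control (log2 ratio −2.74, interval −4.23 to −1.56), the Alg library 17 reads (−1.96, interval −2.81 to −1.19) and the s-GAG library 22 reads (−1.36, interval −2.11 to −0.66). On days 7 and 14 the intervals of 5 of the 6 log2 ratios of *Socs1* held 0, so that no difference was detectable there at this depth. The exception was d-SMG on day 7 (23 against 6 reads, interval 0.033 to 2.96).

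The same control library of day 3 was the highest in 3 interferon-response genes, chosen after their values were seen. It held 78.6 CPM of *Stat2*, a factor of type I interferon signalling, against 6.61 to 27.6 CPM in the other 11 libraries. *Irf7*, which drives the making of type I interferon, was at 203 CPM against 2.73 to 85.1 CPM, and *Isg15*, a ubiquitin-like protein, at 385 CPM against 4.10 to 91.3 CPM. The comparisons of the 3 dressings on day 3 share this control library, so their values count it 3 times.

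Each dressing was then set against the control library of the same day for all 10 genes. On day 3, 2 of the 10 genes were at least 2-fold apart in d-SMG (*Socs1* lower, *Socs3* higher), where 23.7% of all genes were, 1 in s-GAG (*Socs1* lower, 24.9% of all genes) and 1 in Alg (*Socs1* lower, 19.7%). On day 7, 2 were in d-SMG (*Socs1* higher, *Socs3* lower, 13.4%), 3 in s-GAG (*Jak2*, *Jak3* and *Socs3* lower, 24.4%) and 3 in Alg (*Jak2* and *Socs3* lower, *Stat5b* higher, 24.5%). On day 14, 3 were in d-SMG (*Jak3*, *Socs1* and *Socs3* higher, 27.9%), where the interval of *Socs1* held 0. In s-GAG 6 were (57.1%), and in Alg 1 was (*Socs3* higher, 20.3%). As a share these counts were near those of all genes. *Socs3* was past 2-fold in 7 of the 9 pairs and *Tyk2* and *Jak1* in 0 and 1 of them. The 3 pairs of a day share 1 control library, so these tallies are not of independent pairs.

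**Figure D3:**
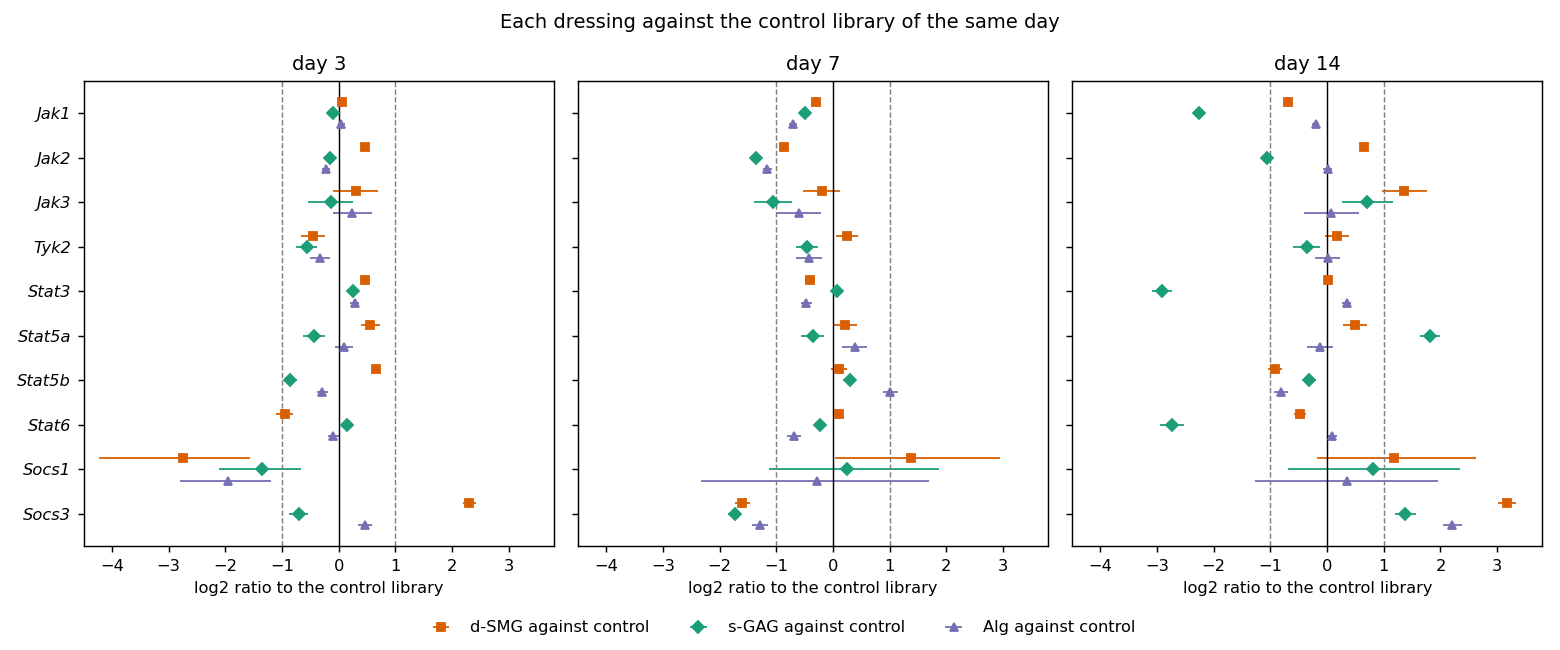
Log2 ratio of TMM-normalized CPM of each dressing to the control library of the same day, with exact 95% intervals for the counting error (bars) and dashed lines at 2-fold. *Socs3* lies left of 0 for all 3 dressings on day 7 and right of 0 on day 14, *Socs1* lies left on day 3, and *Jak1*, *Stat3* and *Stat6* lie far left for s-GAG on day 14.

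Over the 3 days, each dressing was compared with control in an edgeR quasi-likelihood fit of treatment and day, in which the days served as replicates. At an FDR under 0.05 none of the 10 genes was called for any dressing, and over all 16110 genes the share called was 0.0% for d-SMG, 0.0% for s-GAG and 0.0% for Alg. At an unadjusted p under 0.05 there were 218, 1492 and 502 genes, and among the 10 genes 0, 1 and 0. With DESeq2, 9, 288 and 88 genes were called, and with limma on log2(FPKM + 1) 0 for each, in every case without any of the 10.

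For d-SMG against control, the largest fitted change among the 10 genes was that of *Socs3*, a log2 fold change of 1.21 ± 0.82 (SE, interval −0.63 to 3.05, adjusted p = 1.0). *Jak3* (0.45 ± 0.40 SE) and *Stat5a* (0.42 ± 0.51 SE) followed, and *Stat6* was lowest at −0.39 ± 0.59 (SE). Without the d-SMG library of day 3, *Jak3* was at 0.62, *Stat5a* at 0.21 and *Stat6* at −0.0095. The intervals of *Tyk2* (−0.59 to 0.59) and *Jak2* (−0.79 to 0.93) were the narrowest. The *Socs3* value was 2.63 without day 7, 0.40 without day 3, 0.52 without the d-SMG library of day 3 and 0.62 without both libraries that stood apart, and its adjusted p over all alternatives ran from 0.946 to 1.0.

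For s-GAG, 9 of the 10 fitted changes were below 0, with a median of −0.46 beside 0.0021 for all genes. Without the s-GAG library of day 14, 8 were below 0 (median −0.46), and without both libraries that stood apart 9 were (median −0.50). *Stat5a*, the gene above 0 in the main fit, went from 0.54 to −0.43 without the s-GAG library of day 14. *Jak2* had a log2 fold change of −0.87 ± 0.38 (SE, interval −1.73 to −0.014, adjusted p = 0.539), *Jak1* of −0.84 ± 0.45 (SE, adjusted p = 0.576) and *Tyk2* of −0.47 ± 0.26 (SE, adjusted p = 0.583). The values of *Jak2* ran from −1.25 to −0.45 over the libraries or days left out, the latter without the control library of day 7. Those of *Jak1* ran from −1.25 to −0.33, the latter without day 14. For Alg, the fitted changes lay between −0.93 (*Socs1*, 0.76 SE) and 0.16 (*Stat5a*). Without 1 library these signs could turn, with *Socs1* at 0.27 without the control library of day 3 and *Stat5a* at −0.16 without the Alg library of day 7.

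**Figure D4:**
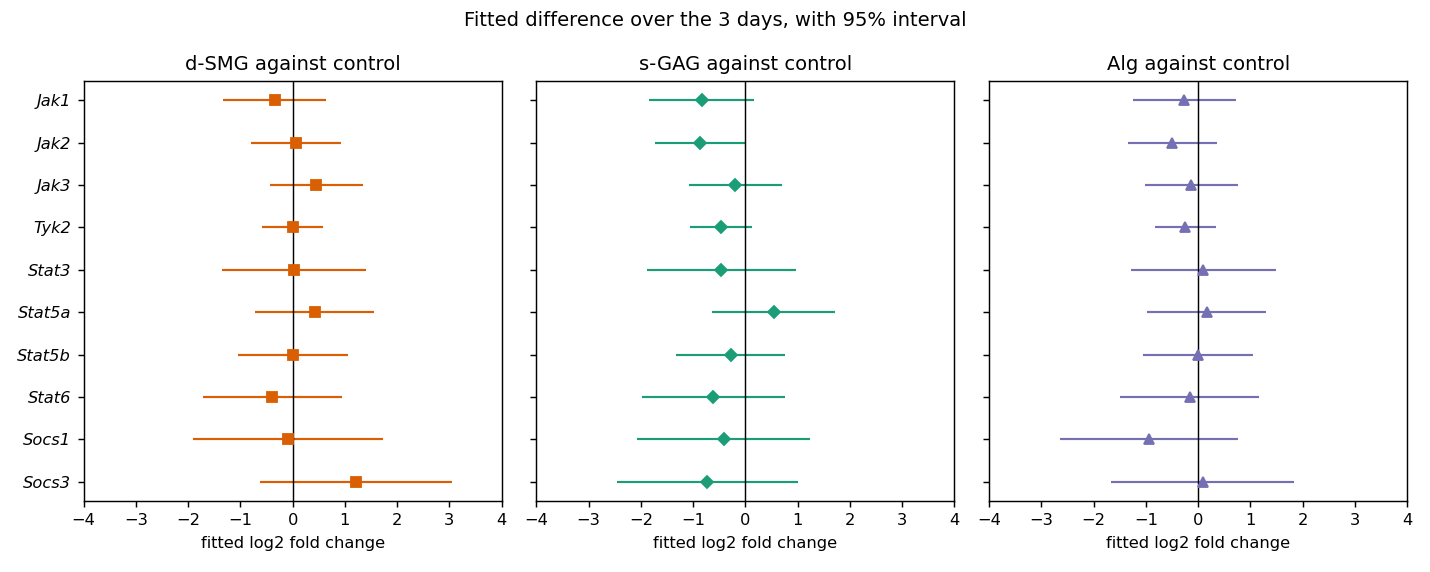
Fitted log2 fold change of each gene over the 3 days with its 95% interval, for d-SMG, s-GAG and Alg against control. The intervals hold 0 for all genes except *Jak2* in s-GAG (−1.73 to −0.014), and the widest belong to *Socs3* and *Socs1*.

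The days were compared in the same fit, with the 4 treatments as replicates. None of the 10 genes was called between days, where 0.0% of all genes were called for day 7 against day 3, 0.0% for day 14 against day 3 and 0.0% for day 14 against day 7. At an unadjusted p under 0.05 there were 292, 798 and 502 genes, none of them among the 10, and DESeq2 called 0, 39 and 7. The largest fitted changes were those of *Socs1*, −1.30 ± 0.67 (SE, adjusted p = 0.999) on day 7 and −1.17 ± 0.66 (SE, adjusted p = 0.882) on day 14 against day 3. Without the control libraries these values were −0.54 and −0.42. The other 9 genes differed by log2 fold changes of −0.46 to 0.38 in the 3 comparisons of days.

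The 10 genes differed most from the other libraries in the s-GAG library of day 14, where 6 were at least 2-fold from the control of that day. Of all genes, 57.1% were past 2-fold in that pair, near the share of the 10. The median absolute log2 ratio was 1.18 for all genes and 1.22 for the 10 genes. *Stat3* was at 19.4 CPM against 146 to 185 CPM in the other 3 libraries of day 14 (7.50-fold below control), *Stat6* at 14.5 CPM against 68.7 to 102 CPM (6.64-fold below) and *Jak1* at 56.9 CPM against 168 to 272 CPM (4.78-fold below). *Jak2* was at 66.8 CPM against 139 to 218 CPM (2.08-fold below). *Stat5a* was at 62.9 CPM against 16.4 to 25.2 CPM (3.51-fold above control), and *Socs3* at 49.0 CPM lay within the other libraries (18.8 to 170 CPM) and 2.61-fold above control. *Stat5b*, *Jak3*, *Tyk2* and *Socs1* were less than 2-fold from control.

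In that library the level of a gene moved with its length. The genes were put into 6 groups of equal size by the length implied by counts and FPKM, and the median log2 difference from the other 3 libraries of day 14 went from 1.16 in the shortest to −0.87 in the longest. The Pearson correlation of that difference with log2 length was −0.43 across genes (which are not independent replicates). It lay between −0.25 and 0.22 in the other 11 libraries, each against the others of its day. The s-GAG library of day 14 was never among these comparators. *Stat3* (log2 difference −3.02), *Jak2* (−1.28) and *Stat5a* (1.68) belonged to the same length group, with a median of −0.28. *Stat6* (−2.59) belonged to a group with a median of 0.10, and *Jak1* (−1.96) to a group with a median of −0.55. The differences of *Stat3* and *Stat6* were lower than those of all but 2.24% and 4.30% of genes, and *Stat5a* was above 90.5% of them. Levels of these genes in that library differed from their length group in both directions, and the part of RNA quality was not tested.

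**Figure D5:**
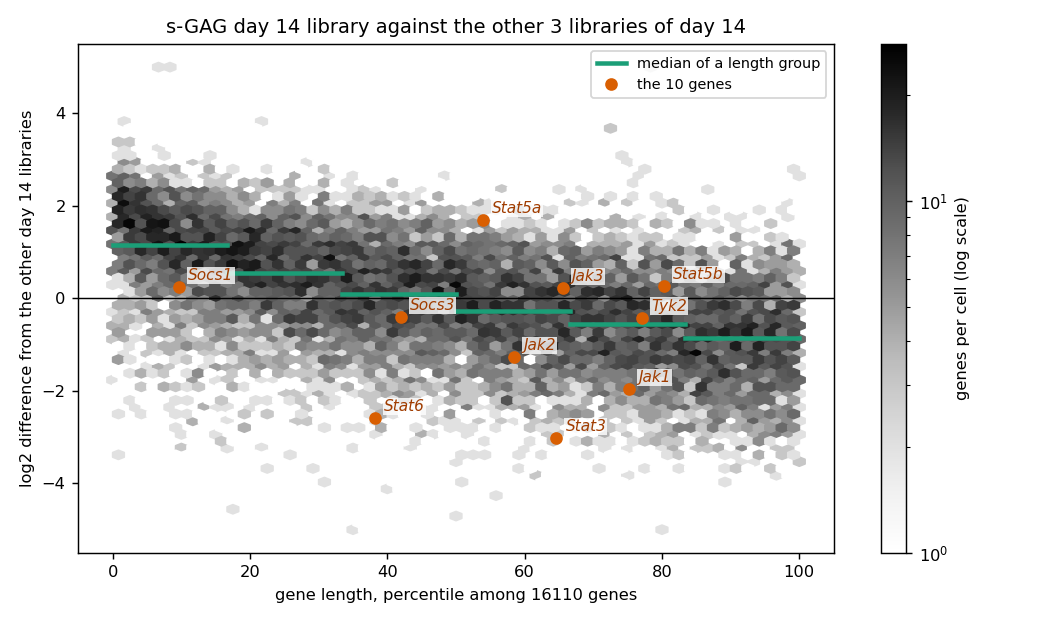
Log2 difference of each of 16110 genes in the s-GAG library of day 14 from the mean of the other 3 libraries of that day (grey density, clipped at 5 units), by percentile of gene length, with medians of 6 length groups (green) and the 10 genes (orange). The medians go from 1.16 to −0.87 along the axis, and *Stat3* (−3.02) and *Stat6* (−2.59) lie far below and *Stat5a* (1.68) far above those of their groups.

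Other genes of the pathway were examined in lists, of which none had a gene called in any of the 6 comparisons over days or treatments. Of 20 other regulators, 1 (*Cish*, a feedback inhibitor induced by STAT5) was at an unadjusted p under 0.05 in d-SMG against control, with a log2 fold change of 1.37 (adjusted p = 1.0), which was 0.61 without the d-SMG library of day 3 (unadjusted p = 0.269 in the edgeR fit). It had 22 to 115 reads in a library, and its highest level was 9.25 CPM in d-SMG on day 3, followed by 5.86 CPM in s-GAG on day 14. These were also the 2 libraries highest in *Stat5a*, and the correlation of *Cish* and *Stat5a* was 0.73 over 12 libraries and 0.14 without them. *Stat2* had a log2 fold change of −1.06 there (adjusted p = 1.0). Between day 14 and day 3, *Sh2b3* (−0.62), *Socs6* (−0.72) and *Stat4* (1.21) came first (adjusted p = 0.882 for each).

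Of 16 gp130 family genes, *Cntfr* (1.46), *Clcf1* (0.90) and *Lifr* (−0.83) came first in d-SMG against control, and *Il11ra1* (1.04), *Cntf* (−1.06) and *Lif* (0.80) in day 14 against day 3. The medians of this list were 0.060 and 0.35 beside −0.030 and 0.013 for all genes. On day 14, 6 of its 16 genes were at least 2-fold higher in d-SMG than in control and 3 were lower (27.9% of all genes were past 2-fold in that pair), the latter being the receptor chains *Il6st*, *Lifr* and *Lepr* (named after the values were seen). In the same comparison on day 7, 2 were higher and 5 lower (13.4% of all genes past 2-fold), and on day 3, 3 were higher and 0 lower (23.7%). Of 14 known STAT3 targets, 8 were at least 2-fold higher in d-SMG than in control on day 14 and 0 lower, with a median log2 ratio of 1.17 beside −0.00088 for all genes. The same count was 7 higher and 1 lower in s-GAG, where 57.1% of all genes were past 2-fold, and 4 higher and 0 lower in Alg (20.3%), against the same control library. On day 3 it was 2 higher and 2 lower in d-SMG (23.7% of all genes), 2 and 4 in s-GAG (24.9%) and 0 and 1 in Alg (19.7%). On day 7 it was 1 and 1 in d-SMG (13.4%), 3 and 4 in s-GAG (24.4%) and 1 and 5 in Alg (24.5%). Over the days *Fgg* (2.51), *Ier3* (0.69) and *Myc* (0.67) came first in d-SMG against control (adjusted p = 1.0 for each), where *Fgg* had 0 to 23 reads in a library. *Fgg* (2.41), *Junb* (0.64) and *Lrg1* (−0.73) came first in day 14 against day 3 (adjusted p = 0.882 for each).

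The signals of the γ chain cytokines and receptors run through JAK1 and JAK3. Of 11 such genes with enough reads, 6 were at least 2-fold higher in d-SMG than in control on day 14 and 0 lower (median log2 ratio 1.18 beside −0.00088 for all genes), where 27.9% of all genes were past 2-fold. On day 7, 9 were lower in s-GAG (median −1.67 beside 0.043, 24.4% of all genes past 2-fold) and 7 in Alg (median −1.49 beside 0.018, 24.5%), with 0 higher, and the log2 ratios of *Jak3* were −1.06 and −0.61. In d-SMG on day 7, where *Jak3* was at −0.20, 0 were higher and 1 lower (13.4% of all genes past 2-fold). In other pairs the list and *Jak3* differed in sign, as in s-GAG on day 14 (*Jak3* at 0.71, list median −0.089) and d-SMG on day 3 (*Jak3* at 0.30, list median −0.52). *Il2rg* itself was at 11.1 CPM in d-SMG and 5.91 CPM in control on day 14. The correlation of *Jak3* and *Il2rg* over the 12 libraries was 0.61 (Spearman 0.54), and 0.59 without the 2 libraries farthest from the median of *Jak3*.

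Summed T and NK cell markers had a correlation of 0.37 with *Jak3* over the 12 libraries. They were 58.9 CPM in d-SMG and 25.5 CPM in control on day 14. The sums of day 7 were 34.9 CPM in control, 46.8 CPM in d-SMG, 14.1 CPM in s-GAG and 13.5 CPM in Alg, and those of day 3 were 11.5, 6.84, 32.4 and 13.7 CPM in the same order. None of the 6 markers was at 0 reads in any library. Summed leukocyte markers (5 genes) were 416 and 398 CPM in d-SMG and control on day 14. The part of lymphocyte content in the level of *Jak3* was not tested. Over the days, *Il21r* (0.57), *Il2rg* (0.36) and *Il2ra* (0.52) came first in d-SMG against control, and *Il15ra* (−0.81), *Il9r* (1.33) and *Il2rg* (−0.36) in day 14 against day 3, with adjusted p of 0.882 to 1.0.

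The remaining lists held 15 interferon and IL-10 family genes, 9 hormone and colony-stimulating factor genes, 8 STAT6 targets and 8 STAT5 targets with enough reads. In d-SMG against control their median log2 fold changes were −0.11, −0.25, −0.090 and 0.15, beside −0.030 for all genes. At an unadjusted p under 0.05 there was 1 gene of these 4 lists, *Cish*, which is also a STAT5 target. In day 14 against day 3, *Tgm2* (−1.001), a STAT6 target that crosslinks matrix proteins, passed the unadjusted threshold (adjusted p = 0.882). Of the 8 STAT6 targets, 0 to 2 were at least 2-fold higher and 0 to 3 lower in the 9 pairs of libraries. The share of all genes past 2-fold in these pairs was 13.4% (d-SMG, day 7) to 57.1% (s-GAG, day 14). In the latter pair 2 STAT6 targets were higher and 2 lower.

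The genes whose levels followed each of the 10 most closely were taken over 12 libraries by Pearson correlation of log2 CPM, as a description over libraries that share treatments, days and depth. For *Jak1* they were *Map3k3* (0.99), *Ptgir* (0.98) and *Gab2* (0.98), for *Stat3* *Sde2* (0.99), *Spcs3* (0.98) and *Nars1* (0.98), and for *Stat6* *Arf3* (0.99), *Wtap* (0.98) and *Hnrnpul1* (0.98). Without the s-GAG library of day 14 these 9 values were 0.73 to 0.96. For *Jak2* they were *Syt17* (0.94), *Slc16a12* (0.94) and *Slc35e1* (0.92), for *Tyk2* *Adgrg5* (0.92), *Fcgr2a* (0.91) and *Layn* (0.91), and for *Jak3* *Tnfsf9* (0.86), *LOC120096656* (0.85) and *Rusf1* (0.85). For *Stat5a* they were *Zdhhc16*, *Ovca2* and *Ndufaf5* (0.95 for each), and for *Stat5b* *Ino80c* (0.95), *LOC100911864* (0.95) and *Tmem38b* (0.94). For *Socs1* they were *RT1-A1* (0.89), an MHC class I gene, *Tap2* (0.88), a peptide transporter of antigen presentation, and *Plac8* (0.88). For *Socs3* they were *Cfap73* (0.85), *Tubb3* (0.85) and *Csrnp1* (0.83), where *Cfap73* had 6 to 18 reads in a library.

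Among the 10 genes themselves, the strongest relations rested on single libraries in part. *Jak1* and *Stat3* had a correlation of 0.93 over 12 libraries and 0.40 without the s-GAG library of day 14. *Stat3* and *Stat6* had 0.86 and 0.16. *Stat5a* and *Stat6* ran against each other, with −0.91 over 12 libraries, −0.82 without that library and −0.64 without the 2 libraries farthest from the median of *Stat5a*. *Jak2* correlated with *Jak3* at 0.53 and with *Socs3* at 0.53, and at 0.76 and 0.68 without the s-GAG library of day 14. *Socs1* and *Socs3* had −0.15 over 12 libraries.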

How the data were processed

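Wound tissue of diabetic rats was sequenced as stranded, rRNA-depleted libraries, 1 for each of 4 treatments on each of 3 days. The authors deposited raw read counts per gene and FPKM values. Per the labels, bcl2fastq, FastQC, TopHat2 and edgeR were used, without versions. The genome build of the counts is not given in the sources used here, and the coordinates of the 2 promoters are those of RefSeq GRCr8. Of the value columns, 1 in the counts and 1 in the FPKM matched no sample and was not used. The FPKM values were proportional to the counts within a gene (largest departure 0.0344% over 1356 genes above 20 FPKM), so they add gene length only.

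Counts were scaled by TMM and fitted with edgeR 4.0.16 (glmQLFit and glmQLFTest, R 4.3.3) over 12 libraries, as a sum of treatment and day, for 16110 genes that passed filterByExpr. There were 6 residual degrees of freedom, and p-values were adjusted by Benjamini-Hochberg at an FDR of 0.05. A dressing effect that varies between days thus widens the error. Pairs of single libraries were described by the log2 ratio of CPM with exact Clopper-Pearson intervals at 95% and a 2-fold limit. Over all genes 0.5 reads were added to each count. FPKM levels were compared by exact permutation tests (scipy 1.17.1). Alternatives were DESeq2 1.42.0, limma 3.58.1 on log2(FPKM + 1) or log2(FPKM + 0.1), RLE or library size scaling, no low-count filter, no replicate block and libraries left out.

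The 10 genes, the 9 pathway lists and the 9 marker lists were chosen with earlier results of these data known. Of these, 1 pathway list and 1 gene of another list are not reported here. Of each list, up to 3 genes with the smallest p-value in d-SMG against control and in day 14 against day 3 were named, and for each of the 10 genes the 3 with the highest correlation.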

Additional observations from a re-analysis of the deposited data

How the results depend on the processing

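None of the 10 genes was called in any of 141 fits of a comparison under 28 other settings, and their smallest adjusted p was 0.332 (*Jak2* in s-GAG against control without the s-GAG library of day 3). Over all genes, DESeq2 called 9 for d-SMG, 288 for s-GAG, 88 for Alg, 39 for day 14 against day 3 and 7 for day 14 against day 7, where edgeR called 0. For s-GAG against control, edgeR called 1 gene without the low-count filter, 0 to 66 genes with a library or day left out (66 without the d-SMG library of day 3) and 177 without both libraries that stood apart, an alternative added after seeing the data. The causes of these counts were not tested. Of 11 fitted changes of the 10 genes followed under these settings, the sign changed for 2. *Stat5a* in Alg against control went from 0.16 to a range of −0.16 to 0.49 with libraries or days left out (−0.16 without the Alg library of day 7 and −0.041 without the control library of day 14), and *Socs1* in Alg against control went from −0.93 to a range of −1.43 to 0.27 with libraries or days left out (0.071 without day 3 and 0.27 without the control library of day 3). No replicate block (the day or treatment term left out) changed no call, and replicates could not be paired with 1 library for each group.

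With a 1.5-fold limit in place of 2-fold, 4 of the 10 genes passed in d-SMG and 3 in s-GAG on day 3. On day 7, 6 passed in Alg, and on day 14, 6 passed in d-SMG and 2 in Alg. *Jak2* in d-SMG on day 7 (log2 ratio −0.86) passed this limit but not 2-fold. So did *Jak3* (0.71) and *Socs1* (0.79) in s-GAG on day 14. The shares of all genes at this limit are not given here. With FPKM and a pseudocount of 1 the count of genes apart was 0 in s-GAG on day 3, 1 in d-SMG on day 7 and 1 in d-SMG on day 14, as low FPKM values shrink towards it. An exact test of d-SMG against control on each day used an assumed BCV of 0.3 in place of an estimate from replicates. Its calls rest on that assumption and on 1 library for each group, and are not given here. Scaling by library size alone moved the median log2 ratio of all genes to between −0.51 and 0.31 over the 9 pairs. The 5 of 9 neighbours in level that differed were the same count with TPM computed from FPKM. At 5 to 23 reads outside 1 library, *Socs1* could show only large differences, and levels of *Stat5a* and *Stat5b* depend on how reads of near-identical paralogs were counted.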
